A study of Mus musculus with 11 samples.

Results

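The complement system was followed through 9 genes, which encode the chains of C1q (*C1qa*, *C1qb* and *C1qc*), the C1 inhibitor (*Serping1*), C4 (*C4b*), C2 (*C2*), C3 (*C3*), factor B (*Cfb*) and properdin (*Cfp*). They were chosen by matching the gene name in the deposited tables to a fixed list, which found 9 of 26283 genes. In the classical pathway, C1q binds antibody or other ligands on a surface, and its partner proteases cleave C4 and C2, whose fragments form an enzyme that cleaves C3. In the alternative pathway, a C3 fragment pairs with factor B, and properdin stabilizes the resulting enzyme, so that C3 cleavage amplifies itself. The liver makes most circulating complement, whereas in tissues and tumors macrophages are a main source of C1q, and fibroblasts and epithelial cells can make several other components.

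Bulk RNA sequencing covered flash-frozen mammary tumors of 18-week-old female C57BL/6 mice, 6 of them PyMT *Pcbp1*–/– and 5 PyMT *Pcbp1*+/+. All mice carried MMTV-PyMT, an oncogene active in the mammary gland, and MMTV-Cre, and the groups differed in having *Pcbp1*(fl/fl) or *Pcbp1*(wt/wt) alleles. The MMTV promoter directs Cre to mammary epithelial cells, and bulk RNA does not tell which cells of a PyMT *Pcbp1*–/– tumor kept *Pcbp1*. *Pcbp1* encodes a protein that binds cytosine-rich single-stranded nucleic acids. Libraries were poly(A)-selected and stranded, and all tumors carried the same batch label. The counts of a tumor summed to 10543200 at the lowest and 14092200 at the highest, and the medians were 13135800 (PyMT *Pcbp1*–/–) and 10975700 (PyMT *Pcbp1*+/+). Levels are given as CPM, counts per 1e6 counts. The 8 luminal epithelial markers, with *Cdh1* the most abundant, summed to 1722 ± 314 CPM (SD, n = 6) with the PyMT *Pcbp1*–/– genotype and 1770 ± 237 CPM (SD, n = 5) with PyMT *Pcbp1*+/+.

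*Pcbp1* (ENSMUSG00000051695.6, chromosome 6 of GRCm38, 86524492 to 86526321, minus strand) was examined first, since it checks the labels. Its level ran from 15.4 to 33.6 CPM, with a median of 20.9 CPM, in the 6 PyMT *Pcbp1*–/– tumors. The PyMT *Pcbp1*+/+ tumors had 268, 271, 225, 220 and 259 CPM in replicates 1 to 5. No PyMT *Pcbp1*–/– tumor came near a PyMT *Pcbp1*+/+ tumor. The log2 fold change, here always PyMT *Pcbp1*–/– minus PyMT *Pcbp1*+/+, was -3.43 (standard error, SE, 0.19; adjusted p = 4.72e-06, quasi-likelihood test of edgeR, Benjamini-Hochberg over all genes). Bulk RNA does not tell which cells held the residual level.

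None of the complement genes passed the test between the groups. All 9 members passed the filter on low counts and were tested among 19232 genes. At an adjusted p under 0.05 (edgeR), 0 of 9 members were lower in PyMT *Pcbp1*–/– tumors, where 1.66% of all genes tested were, and 0 were higher, where 0.608% were. At an unadjusted p under 0.05 (edgeR), 0 members were lower against 10.5% of all genes, and 0 were higher against 8.19%. The counts at an unadjusted p under 0.05 were also 0 and 0 with DESeq2. With limma-voom and sample quality weights, 2 members were lower (*C2* and *Cfb*) and 1 was higher (*C4b*) at that p, with a smallest adjusted p of 0.0503. That tool, however, put 15.3% of all genes lower and 15.0% higher at the same p. *C2* was also lower at that p with the replicate number as a block, without PyMT *Pcbp1*–/– replicate 6 and without PyMT *Pcbp1*+/+ replicate 5. *C4b* was also higher with limma on log2(CPM + 1) or log2(CPM + 0.1), with that block and without PyMT *Pcbp1*+/+ replicate 5. These fits put 9.22% to 10.8% of all genes lower and 7.63% to 9.33% higher at that p. The CPM ranges of the groups overlapped for every member, whereas 2.02% of all genes tested were lower without overlap and 1.27% were higher without overlap.

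Members nevertheless did not all point the same way. Of the 9, 7 had a positive log2 fold change and 2, *C2* and *Cfb*, a negative one. The median over the members was 0.19, against -0.00012 over all genes tested. Under limma-voom with quality weights per tumor, the members' median was -0.07. It was 0.03 without PyMT *Pcbp1*–/– replicate 1 and 0.36 without PyMT *Pcbp1*+/+ replicate 3. The estimates were widest for *C4b*, whose 95% interval ran from -0.19 to 2.00, and narrowest for *C1qb*, from -0.31 to 0.63. A p that misses the threshold does not show that values did not differ, and these intervals include changes of well over 1.3-fold in at least 1 direction for each member.

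**Figure D1:**
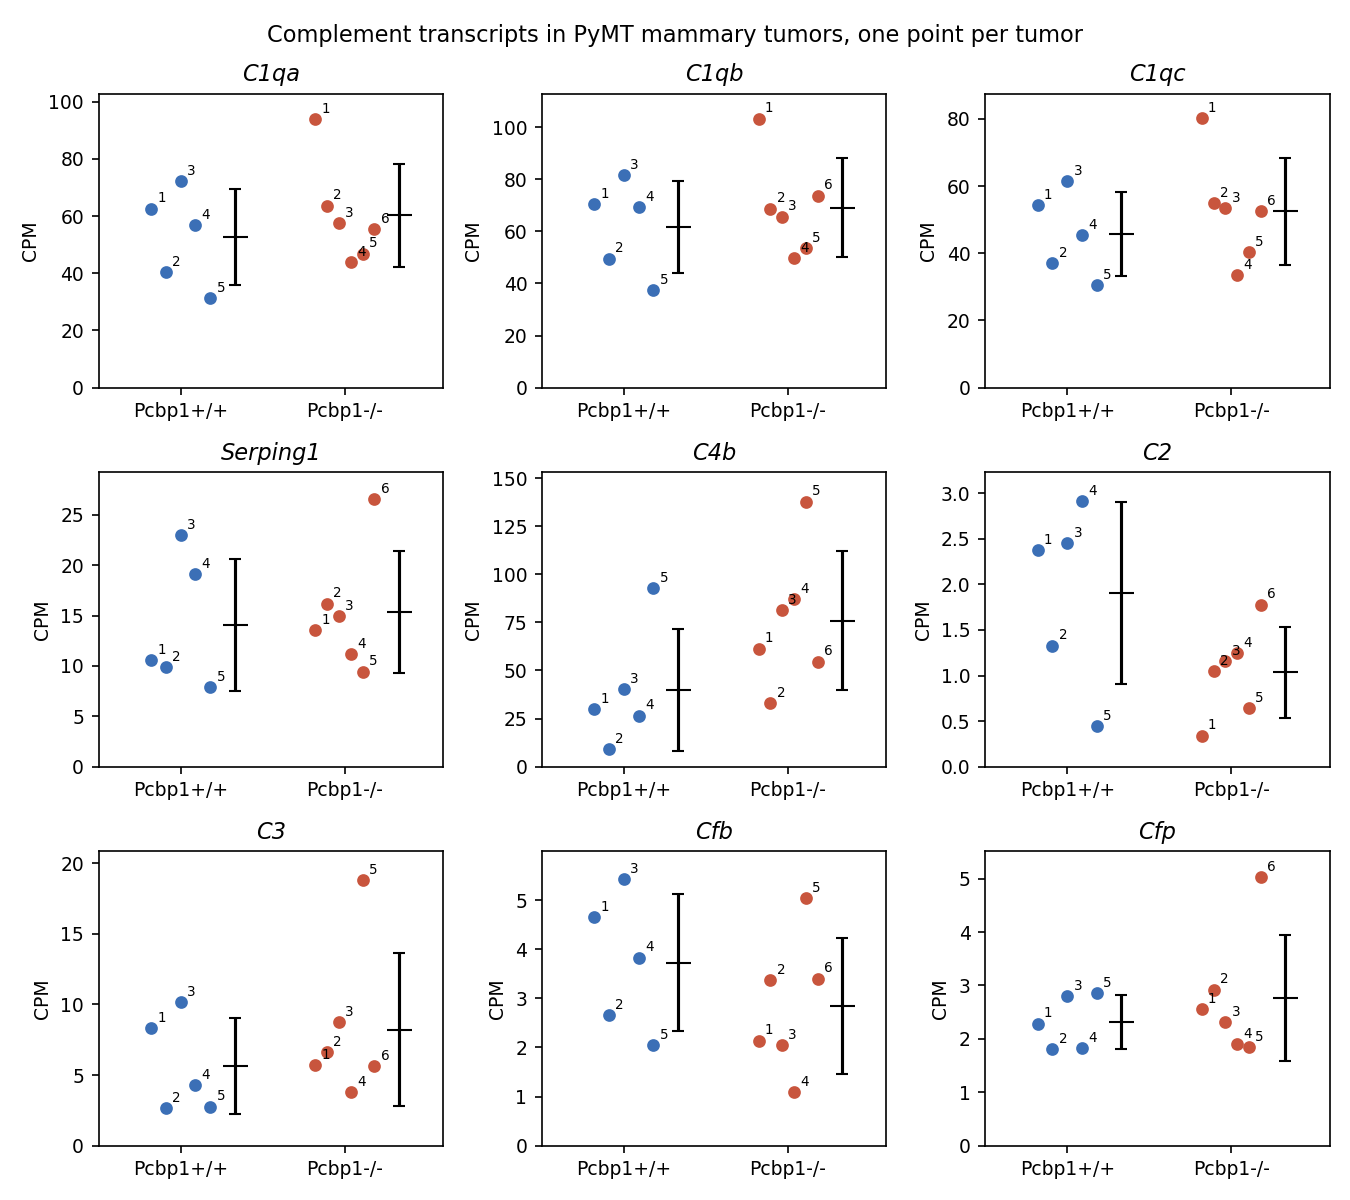
Level of each complement gene in CPM (vertical axes from 0) in every PyMT *Pcbp1*+/+ (blue) and PyMT *Pcbp1*–/– (red) tumor, with the replicate number beside each point and the mean ± SD as a bar beside each group. The groups overlap in all 9 panels, and the C1q chains share their highest tumor, PyMT *Pcbp1*–/– replicate 1 (93.9, 103 and 80.1 CPM).

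To set levels of different genes side by side, CPM was divided by the length of one transcript per gene in kilobases. On this scale, the C1q chains were highest in both groups. *C1qa* had 48.4 ± 15.3 CPM per kilobase (SD, n = 5) with the PyMT *Pcbp1*+/+ genotype and 55.4 ± 16.6 (SD, n = 6) with PyMT *Pcbp1*–/–. *C1qc* followed with 24.7 ± 6.76 and 28.3 ± 8.64 CPM per kilobase, and *C1qb* with 24.3 ± 7.01 and 27.3 ± 7.52. The *C1qa* level per length exceeded that of *C1qc* in 11 of 11 tumors, whereas *C1qc* exceeded *C1qb* in 8 of 11, within their spread. The annotated *C1qb* transcripts differ widely in length, so its place beside *C1qc* depends on the transcript used, here one of 2532 bases.

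Below the C1q chains, *Serping1* and *C4b* formed a middle level per length. *Serping1* had 7.68 ± 3.59 CPM per kilobase in PyMT *Pcbp1*+/+ and 8.36 ± 3.30 in PyMT *Pcbp1*–/– tumors. *C4b* had 7.31 ± 5.82 and 13.97 ± 6.62 CPM per kilobase, so the order of this pair differed between the groups, without a gap in either (*Serping1* was the higher in 6 of 11 tumors). The alternative pathway genes and *C2* were lowest. In PyMT *Pcbp1*+/+ tumors, *Cfp* had 1.41 ± 0.311, *Cfb* 1.11 ± 0.416, *C3* 1.09 ± 0.662 and *C2* 0.716 ± 0.376 CPM per kilobase (SD, n = 5). In PyMT *Pcbp1*–/– tumors, the corresponding levels were 1.68 ± 0.720 for *Cfp*, 1.59 ± 1.052 for *C3*, 0.851 ± 0.414 for *Cfb* and 0.389 ± 0.188 for *C2* (SD, n = 6). Between neighbours in this order, the ranges of single tumors were apart only between *C1qb* and *Serping1* in PyMT *Pcbp1*+/+ tumors and between *Serping1* and *Cfp* in PyMT *Pcbp1*–/– tumors.

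The C1q chains, which assemble with one another into the recognition molecule of the classical pathway, lie together on the minus strand of chromosome 4: *C1qb* (ENSMUSG00000036905.8) from 136880129 to 136886187, *C1qc* (ENSMUSG00000036896.5) from 136889804 to 136893065 and *C1qa* (ENSMUSG00000036887.5) from 136895917 to 136898803. *C1qa* ran from 43.8 to 93.9 CPM, with a median of 56.5 CPM, in PyMT *Pcbp1*–/– tumors. Its PyMT *Pcbp1*+/+ values were 62.6, 40.3, 72.3, 56.9 and 31.3 CPM in replicates 1 to 5. PyMT *Pcbp1*–/– replicate 1 lay above every PyMT *Pcbp1*+/+ tumor, PyMT *Pcbp1*+/+ replicates 2 and 5 lay below every PyMT *Pcbp1*–/– tumor, and the rest intermingled. The means were 60.2 ± 18.02 CPM (SD, n = 6) and 52.7 ± 16.7 CPM (SD, n = 5), with a log2 fold change of 0.19 (95% interval -0.31 to 0.69, SE 0.23, edgeR adjusted p = 0.703).

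*C1qb* showed the same ranking of extreme tumors. It ran from 49.7 to 103 CPM, with a median of 67.2 CPM, in PyMT *Pcbp1*–/– tumors. The PyMT *Pcbp1*+/+ replicates 1 to 5 had 70.4, 49.5, 81.5, 69.2 and 37.4 CPM. PyMT *Pcbp1*–/– replicate 1 was again the highest of the 11 tumors and PyMT *Pcbp1*+/+ replicate 5 the lowest. Means of 69.1 ± 19.0 CPM (SD, n = 6) and 61.6 ± 17.8 CPM (SD, n = 5) gave a log2 fold change of 0.16 (95% interval -0.31 to 0.63, SE 0.22, edgeR adjusted p = 0.727). For *C1qc*, the PyMT *Pcbp1*–/– tumors ran from 33.4 to 80.1 CPM around a median of 52.9 CPM, and the PyMT *Pcbp1*+/+ tumors had 54.3, 37.1, 61.5, 45.5 and 30.5 CPM. The highest and the lowest tumor were those of the other chains. Its means were 52.5 ± 16.0 CPM (SD, n = 6) and 45.8 ± 12.5 CPM (SD, n = 5), with a log2 fold change of 0.19 (95% interval -0.29 to 0.67, SE 0.22, edgeR adjusted p = 0.688).

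The size of these small positive differences depended on single tumors. Without PyMT *Pcbp1*–/– replicate 1, the log2 fold changes of *C1qa*, *C1qb* and *C1qc* were 0.02, 0.02 and 0.03. They were 0.06, 0.04 and 0.09 without PyMT *Pcbp1*+/+ replicate 5 and 0.10, 0.09 and 0.12 without PyMT *Pcbp1*+/+ replicate 2, but 0.37, 0.33 and 0.36 without PyMT *Pcbp1*+/+ replicate 3. That of *C1qc* was 0.29 without PyMT *Pcbp1*–/– replicate 4. With limma-voom and sample quality weights they were -0.07, -0.09 and -0.07. The ratio between chains was far steadier than the level of each. Per length, the *C1qa* to *C1qb* ratio stayed between 1.75 and 2.16 over the 11 tumors (median 2.05, coefficient of variation 5.83%), while *C1qb* itself varied 2.76-fold. The *C1qc* to *C1qb* ratio ran from 0.899 to 1.12 (median 1.03, coefficient of variation 7.02%). The *C1qa* to *C1qc* ratio ran from 1.74 to 2.23 (median 1.97, coefficient of variation 7.34%), so the chains kept nearly one proportion in tumors of either genotype.

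Co-variation was measured on log2(CPM + 1) after removing the mean of each group, over 11 tumors and 54 relations, with two-sided permutation tests of 100000 resamples and Benjamini-Hochberg adjustment over the 54. The 3 relations among the C1q chains were the strongest. *C1qa* and *C1qb* had a Pearson r of 0.980 (permutation p = 2e-05, adjusted p = 0.00054) and a Spearman rho of 0.964 (permutation p = 5e-05, adjusted p = 0.0027). *C1qa* and *C1qc* had r = 0.969 (permutation p = 1e-05, adjusted p = 0.00054) and rho = 0.927 (permutation p = 0.00016, adjusted p = 0.00432), where 1e-05 is the smallest p these permutations give. *C1qb* and *C1qc* had r = 0.966 (permutation p = 3e-05, adjusted p = 0.00054) and rho = 0.909 (permutation p = 0.00035, adjusted p = 0.0063). Each relation held without the 2 tumors farthest from the median on the x axis, with r of 0.957, 0.976 and 0.960 in the same order. An exact permutation within each group, added after the data were seen, also kept all 3, with adjusted p of 0.00229, 0.000625 and 0.00156.

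Macrophage markers were set beside the C1q chains, because macrophages make C1q. Fewer cells of a type and less RNA per cell cannot be told apart in bulk tumors. Of 12 listed macrophage markers, all were tested, with a median log2 fold change of 0.20, and none was at 0 in any tumor. 1 marker fell (*Cd14*) and 1 rose (*Trem2*) at an adjusted p under 0.05 (edgeR), and both are described here after their values were seen. *Cd14*, a co-receptor for bacterial lipopolysaccharide, had 80.4 ± 15.7 CPM (SD, n = 6) with the PyMT *Pcbp1*–/– genotype and 186 ± 101 CPM (SD, n = 5) with PyMT *Pcbp1*+/+ (log2 fold change -1.19, SE 0.28, edgeR adjusted p = 0.0481), a call lost in 14 of 21 alternatives (adjusted p from 0.00207 to 0.193). *Trem2*, a lipid-sensing receptor of macrophages, had 2.55 ± 0.567 CPM (SD, n = 6) against 1.23 ± 0.253 CPM (SD, n = 5), without overlap (log2 fold change 1.04, SE 0.22, edgeR adjusted p = 0.0294), a call lost in 7 of 21 alternatives (adjusted p from 0.00591 to 0.112).

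*Cd14* made up 50.02% of the summed macrophage markers and was high in 2 PyMT *Pcbp1*+/+ tumors, so the sum was also taken without it, a choice made after the data were seen. The same 2 tumors, PyMT *Pcbp1*+/+ replicates 1 and 2, had the highest summed basal epithelial markers (617 and 357 CPM, at most 284 CPM elsewhere), and the part of other cell types in the *Cd14* values was not tested. With *Cd14*, the sum was 219 ± 27.8 CPM (SD, n = 6) with the PyMT *Pcbp1*–/– genotype and 302 ± 105 CPM (SD, n = 5) with PyMT *Pcbp1*+/+. Without it, the remaining 11 markers, *Cx3cr1* the most abundant, summed to 139 ± 37.0 CPM and 116 ± 35.2 CPM. The PyMT *Pcbp1*–/– tumors then had 191, 158, 130, 98.4, 97.9 and 157 CPM in replicates 1 to 6, and the PyMT *Pcbp1*+/+ tumors 134, 96.7, 146, 139 and 62.8 CPM in replicates 1 to 5. The tumor with the highest sum was the one with the highest C1q levels, PyMT *Pcbp1*–/– replicate 1, and the one with the lowest sum had the lowest C1q levels, PyMT *Pcbp1*+/+ replicate 5. PyMT *Pcbp1*–/– replicate 1 also had the lowest summed luminal epithelial markers (1220 CPM) and the highest summed endothelial markers (80.3 CPM) of the 11 tumors.

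Across tumors, the C1q chains went with this reduced sum. *C1qb* had r = 0.968 with it (permutation p = 1e-05, adjusted p = 0.00018) and rho = 0.973 (permutation p = 1e-05), with r = 0.958 without the 2 farthest tumors. *C1qa* had r = 0.937 (permutation p = 1e-05, adjusted p = 0.00018) and rho = 0.955 (permutation p = 2e-05), with r = 0.913 without the 2 farthest tumors. *C1qc* had r = 0.916 (permutation p = 3e-05, adjusted p = 0.00027) and rho = 0.873 (permutation p = 0.00088), with r = 0.920 without the 2 farthest tumors. With *Cd14* in the sum, the same 3 relations did not pass, with r of 0.455, 0.456 and 0.462 for *C1qa*, *C1qb* and *C1qc* (permutation tests, adjusted p = 0.467 for each). How much of the C1q level comes from the number of macrophages was not tested.

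**Figure D2:**
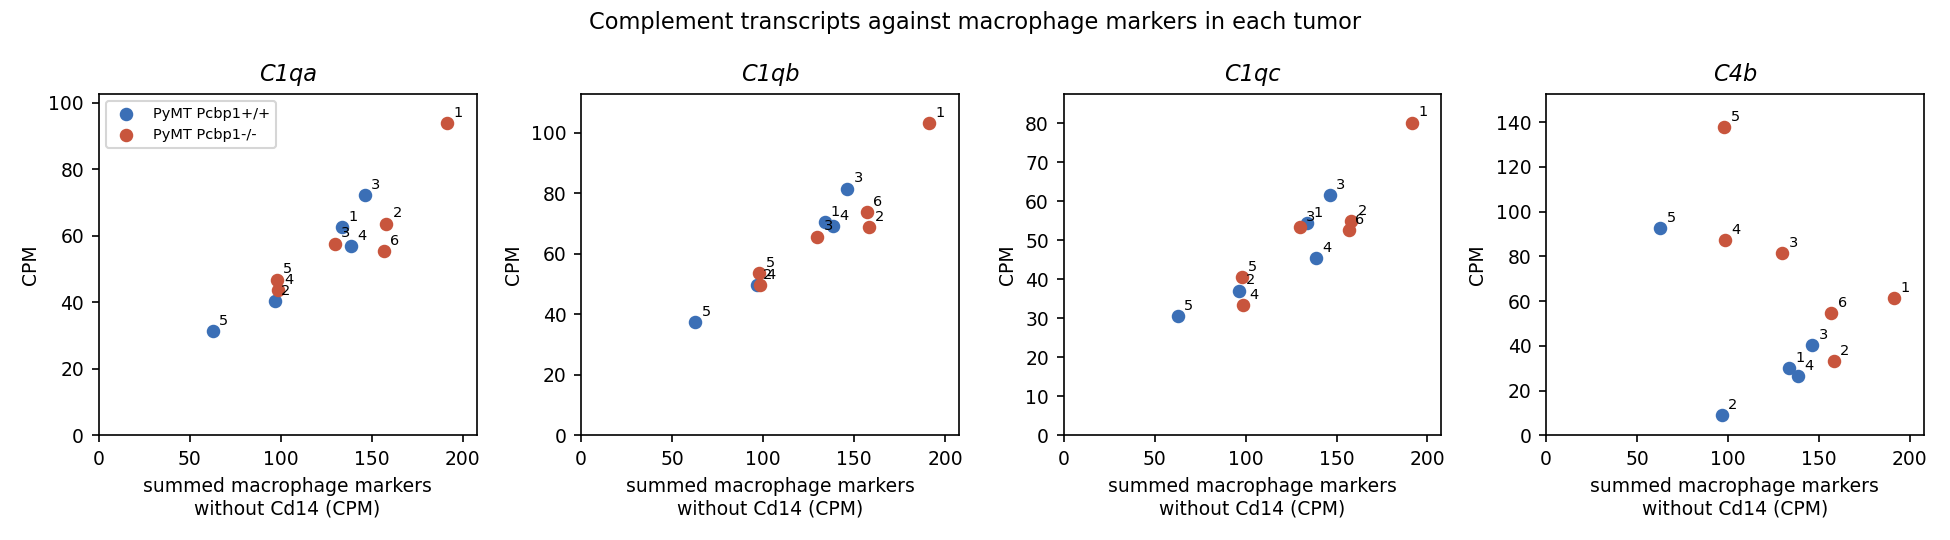
Level of *C1qa*, *C1qb*, *C1qc* and *C4b* in CPM against the summed CPM of 11 macrophage markers without *Cd14*, with 1 point per tumor (PyMT *Pcbp1*+/+ blue, PyMT *Pcbp1*–/– red) and its replicate number. The C1q chains lie along a line that both genotypes share, and *C4b* does not, with its highest value of 138 CPM at a sum of 97.9 CPM.

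Interferon-responsive genes were lower in PyMT *Pcbp1*–/– tumors, and the members were compared with 10 of them as a reference. Of these 10, 9 fell at an adjusted p under 0.05 (edgeR), with a median log2 fold change of -2.71 and a range over the 10 from -3.05 to -0.85, but the study picked some of them on these same tumors, so their direction is not independent evidence. The most negative estimate of a member, -0.86 for *C2*, lay at the weak end of that range and did not pass the test. After removal of the group means, *C1qb* went with the mean of the reference genes (r = 0.774, permutation p = 0.0035, adjusted p = 0.0378, rho = 0.836, permutation p = 0.00203), with r = 0.857 without the 2 farthest tumors. That relation was fragile. Its adjusted p was 0.05 or more in 11 of 13 alternatives and ran from 0.00877 to 0.382 over them, the highest without PyMT *Pcbp1*+/+ replicate 5, where r was 0.615. The exact permutation within groups gave an adjusted p of 0.0894. For *C1qa*, r was 0.701 (permutation p = 0.0131, adjusted p = 0.093), short of the threshold.

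*Serping1* (ENSMUSG00000023224.12, chromosome 2, 84765387 to 84775444, minus strand) encodes the inhibitor that removes the proteases of C1 and so restrains the classical pathway. In PyMT *Pcbp1*–/– tumors it ran from 9.44 to 26.6 CPM, with a median of 14.3 CPM. In PyMT *Pcbp1*+/+ replicates 1 to 5 it had 10.6, 9.86, 23.0, 19.1 and 7.86 CPM. PyMT *Pcbp1*–/– replicate 6 and PyMT *Pcbp1*+/+ replicates 3 and 4 were the high tumors, 1 of one genotype and 2 of the other. Means of 15.3 ± 6.04 CPM (SD, n = 6) and 14.1 ± 6.58 CPM (SD, n = 5) gave a log2 fold change of 0.11 (95% interval -0.59 to 0.81, SE 0.32, edgeR adjusted p = 0.886). The sign turned without PyMT *Pcbp1*–/– replicate 6 (-0.13) and without PyMT *Pcbp1*+/+ replicate 5 (-0.03), and also with limma-voom (-0.19). The fit with the replicate number as a block also lacked PyMT *Pcbp1*–/– replicate 6, and gave -0.03. The value was 0.41 without PyMT *Pcbp1*+/+ replicate 3, without replicate 4 it was 0.22, and without PyMT *Pcbp1*–/– replicate 5 it was 0.22. It was 0.00 without PyMT *Pcbp1*+/+ replicate 1 or 2, and without PyMT *Pcbp1*–/– replicate 4 it was 0.19.

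Within each genotype, the summed fibroblast markers were highest in the tumors where *Serping1* was, but single markers differed. All 8 listed fibroblast markers were tested, 0 were called (edgeR), and none was at 0 in any tumor. Their sum, led by *Col1a1*, was 692, 724, 643, 644, 406 and 1008 CPM in the PyMT *Pcbp1*–/– tumors, in order of replicate. It was 406, 541, 711, 759 and 421 CPM in the PyMT *Pcbp1*+/+ tumors, in order of replicate. The tumors with the highest sums in their group, PyMT *Pcbp1*–/– replicate 6 and PyMT *Pcbp1*+/+ replicates 3 and 4, were those with the highest *Serping1*. Among 10866 tested protein-coding genes with a mean of at least 5 CPM, the closest to *Serping1* over the 11 tumors were *Medag* (r = 0.966), *Cilp* (r = 0.937) and *Col3a1* (r = 0.933), the last a fibroblast marker of the list. For each member, the closest genes are the highest r of such a search. Over so few tumors it gives high r for unrelated genes too, and none of these r was tested. *Col1a1* itself was highest in replicate 2 of each genotype, where *Serping1* was not. The part of fibroblasts in the *Serping1* level was not tested.

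*C4b*, which encodes the C4 protein cleaved after C1 activation, had the largest positive difference of the members. It lies on the minus strand of chromosome 17 (ENSMUSG00000073418.4, 34728380 to 34743882). Its PyMT *Pcbp1*–/– values ran from 33.2 to 138 CPM, with a median of 71.4 CPM. The PyMT *Pcbp1*+/+ values were 29.97, 9.20, 40.5, 26.5 and 92.6 CPM in replicates 1 to 5. All 6 PyMT *Pcbp1*–/– tumors lay above the PyMT *Pcbp1*+/+ median, and 3 PyMT *Pcbp1*+/+ tumors lay below every PyMT *Pcbp1*–/– tumor. PyMT *Pcbp1*+/+ replicate 5, however, was higher than all PyMT *Pcbp1*–/– tumors but replicate 5, and the range over the 11 tumors was 15.0-fold, the widest of the members. Means of 75.9 ± 35.97 CPM (SD, n = 6) and 39.8 ± 31.6 CPM (SD, n = 5) gave a log2 fold change of 0.90 (95% interval -0.19 to 2.00, SE 0.50, edgeR adjusted p = 0.361).

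The size of the *C4b* difference depended on single tumors in either direction. Without PyMT *Pcbp1*+/+ replicate 5, the log2 fold change was 1.53 (edgeR adjusted p = 0.0949), and without PyMT *Pcbp1*–/– replicate 5 it was 0.64 (edgeR adjusted p = 0.578). Limma-voom with sample quality weights gave 1.20 (adjusted p = 0.0503), and over 21 alternatives the adjusted p of *C4b* ran from 0.0503 to 0.578. *C4b* did not follow the C1q chains, with r of -0.291 for *C1qa*, -0.334 for *C1qb* and -0.286 for *C1qc* (permutation tests, adjusted p = 0.555 for each). Its most negative relation was with the macrophage sum that includes *Cd14* (r = -0.720, permutation p = 0.0138, adjusted p = 0.093), which missed the threshold. In the same untested search, the genes closest to *C4b* were *Mrps6* (r = 0.979), *Vdac3* (r = 0.954) and *Pced1b* (r = 0.942).

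*C4b* has a near copy on the same strand, *C4a* (ENSMUSG00000015451.16, chromosome 17, 34809092 to 34823464), annotated as a processed transcript. Of the 5336 windows of 100 bases in the *C4b* transcript, 871 (16.3%) occur unchanged in that of *C4a*, and of 5386 windows of 50 bases, 1875 (34.8%) do. How the counting shared such reads is not given in the sources used here, so the split between the pair is uncertain. *C4a* had 3.87 ± 1.72 CPM (SD, n = 6) with the PyMT *Pcbp1*–/– genotype and 2.41 ± 1.10 CPM (SD, n = 5) with PyMT *Pcbp1*+/+, with an estimate of 0.67 on the log2 scale (SE 0.38, edgeR adjusted p = 0.371). Per length, *C4b* exceeded *C4a* by 3.83-fold in PyMT *Pcbp1*+/+ replicate 2 and by 22.2-fold in PyMT *Pcbp1*–/– replicate 1, with a median of 19.0 over the 11 tumors.

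*C2*, the protease that joins C4 in the enzyme that cleaves C3, had the largest negative difference of the members. The gene (ENSMUSG00000024371.14) spans 34862604 to 34898265 on the minus strand of chromosome 17. It ran from 0.342 to 1.78 CPM, with a median of 1.10 CPM, in PyMT *Pcbp1*–/– tumors. The PyMT *Pcbp1*+/+ tumors had 2.38, 1.33, 2.45, 2.92 and 0.447 CPM in replicates 1 to 5. All 6 PyMT *Pcbp1*–/– tumors lay below the PyMT *Pcbp1*+/+ median, and PyMT *Pcbp1*+/+ replicates 1, 3 and 4 lay above every PyMT *Pcbp1*–/– tumor. PyMT *Pcbp1*+/+ replicate 5 was the exception, among the lowest of the 11. Means of 1.03 ± 0.500 CPM (SD, n = 6) and 1.90 ± 1.00 CPM (SD, n = 5) gave a log2 fold change of -0.86 (95% interval -1.82 to 0.11, SE 0.44, edgeR adjusted p = 0.321). Without PyMT *Pcbp1*+/+ replicate 5, the value was -1.10 (edgeR adjusted p = 0.143), limma on log2(CPM + 1) gave -0.47 (adjusted p = 0.381), and over 21 alternatives the adjusted p ran from 0.137 to 0.540.

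Few reads stood behind *C2*. The lowest tumor had 4 counts and the highest 32, where 3 counts, the limit that a count of 0 allows, equal between 0.213 and 0.285 CPM in these tumors. Such limits cover counting error only. *C2* overlaps *Zbtb12* on the opposite strand over 17385 bases, and whether the counting used strand is not given in the sources used here, so their reads cannot be told apart. *Zbtb12*, a zinc finger gene, had an estimate of 0.24 on the log2 scale (SE 0.21, edgeR adjusted p = 0.577), opposite in sign to that of *C2*. Over 21 alternatives, the estimate of *Zbtb12* ran from 0.11 (without PyMT *Pcbp1*–/– replicate 5) to 0.44. *C2* tended to be high where *Serping1* was (r = 0.725, permutation p = 0.012, adjusted p = 0.093), short of the threshold. Its closest genes in the same untested search were *Zfp759* (r = 0.922), *Trim21* (r = 0.911) and *Ifih1* (r = 0.907).

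*C3*, the central component on which the pathways meet, is encoded on chromosome 17 from 57203970 to 57228136 (ENSMUSG00000024164.15, minus strand). In PyMT *Pcbp1*–/– tumors it ran from 3.80 to 18.8 CPM, with a median of 6.16 CPM. In PyMT *Pcbp1*+/+ replicates 1 to 5 it had 8.31, 2.66, 10.2, 4.28 and 2.77 CPM. PyMT *Pcbp1*–/– replicate 5 stood alone at the top, and PyMT *Pcbp1*+/+ replicates 2 and 5 lay below every PyMT *Pcbp1*–/– tumor. Means of 8.22 ± 5.43 CPM (SD, n = 6) and 5.64 ± 3.41 CPM (SD, n = 5) gave a log2 fold change of 0.54 (95% interval -0.46 to 1.54, SE 0.46, edgeR adjusted p = 0.565). Without PyMT *Pcbp1*–/– replicate 5 it was 0.09, and without PyMT *Pcbp1*+/+ replicate 3 it was 0.92, so its size depended on single tumors. Limma-voom gave 0.17.

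*Cfb* encodes the protease of the alternative pathway that pairs with C3, and adjoins *C2* on the minus strand (ENSMUSG00000090231.10, chromosome 17, 34856374 to 34862518). It ran from 1.10 to 5.04 CPM, with a median of 2.76 CPM, in PyMT *Pcbp1*–/– tumors. The PyMT *Pcbp1*+/+ values were 4.66, 2.66, 5.43, 3.83 and 2.05 CPM in replicates 1 to 5. Of the PyMT *Pcbp1*–/– tumors, 5 of 6 lay below the PyMT *Pcbp1*+/+ median, and replicate 5, the high tumor for *C3*, was the 1 above it. Means of 2.85 ± 1.39 CPM (SD, n = 6) and 3.73 ± 1.39 CPM (SD, n = 5) gave a log2 fold change of -0.38 (95% interval -1.17 to 0.40, SE 0.36, edgeR adjusted p = 0.607). Single tumors moved this value either way, to -0.16 without PyMT *Pcbp1*+/+ replicate 3, -0.22 without PyMT *Pcbp1*–/– replicate 4 and -0.63 without PyMT *Pcbp1*–/– replicate 5. Limma-voom with sample quality weights gave -0.94 (adjusted p = 0.107), and over 21 alternatives the adjusted p ran from 0.107 to 0.867.

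*C3* and *Cfb* went together from tumor to tumor, although their mean differences had opposite signs. Their r was 0.833 (permutation p = 0.00165, adjusted p = 0.0223) and their rho 0.845 (permutation p = 0.00181, adjusted p = 0.0219), with r = 0.775 without the 2 farthest tumors. The relation missed the threshold without PyMT *Pcbp1*–/– replicate 4 or 5 or PyMT *Pcbp1*+/+ replicate 3 or 5, with adjusted p up to 0.088 in permutation tests. The exact permutation within groups gave p = 0.00477 and an adjusted p of 0.0644. *C2*, next to *Cfb*, did not follow it (r = 0.377, permutation p = 0.253, adjusted p = 0.514), and the *Cfb* to *C2* ratio per length ran from 0.701 to 6.27. In the same untested search, the closest genes to *C3* were *Akap7* (r = 0.929), *Nfkbie* (r = 0.889) and *Cul2* (r = 0.870). Those to *Cfb* were *Hypk* (r = 0.938), *Mapkapk3* (r = 0.907) and *Pggt1b* (r = 0.888).

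*Cfp* (ENSMUSG00000001128.7, chromosome X, 20925454 to 20931555, minus strand) encodes properdin, which stabilizes the alternative pathway enzyme. It ran from 1.85 to 5.02 CPM, with a median of 2.44 CPM, in PyMT *Pcbp1*–/– tumors. In PyMT *Pcbp1*+/+ replicates 1 to 5 it had 2.28, 1.802, 2.80, 1.82 and 2.86 CPM. Apart from PyMT *Pcbp1*–/– replicate 6, the 11 tumors shared one narrow range. Means of 2.76 ± 1.18 CPM (SD, n = 6) and 2.31 ± 0.510 CPM (SD, n = 5) gave a log2 fold change of 0.24 (95% interval -0.39 to 0.87, SE 0.29, edgeR adjusted p = 0.698), and without PyMT *Pcbp1*–/– replicate 6 it was -0.03. It was 0.15 without PyMT *Pcbp1*+/+ replicate 4 and with limma on log2(CPM + 1) and 0.06 with limma-voom. The fit with the replicate number as a block, which also lacked PyMT *Pcbp1*–/– replicate 6, gave -0.01. The closest genes, picked as the highest r of 10866 and not tested, were *Akap5* (r = 0.822), *Hibch* (r = 0.815) and *Ebf1* (r = 0.803). The first of these rested on PyMT *Pcbp1*–/– replicate 6, without which r was 0.531.

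**Figure D3:**
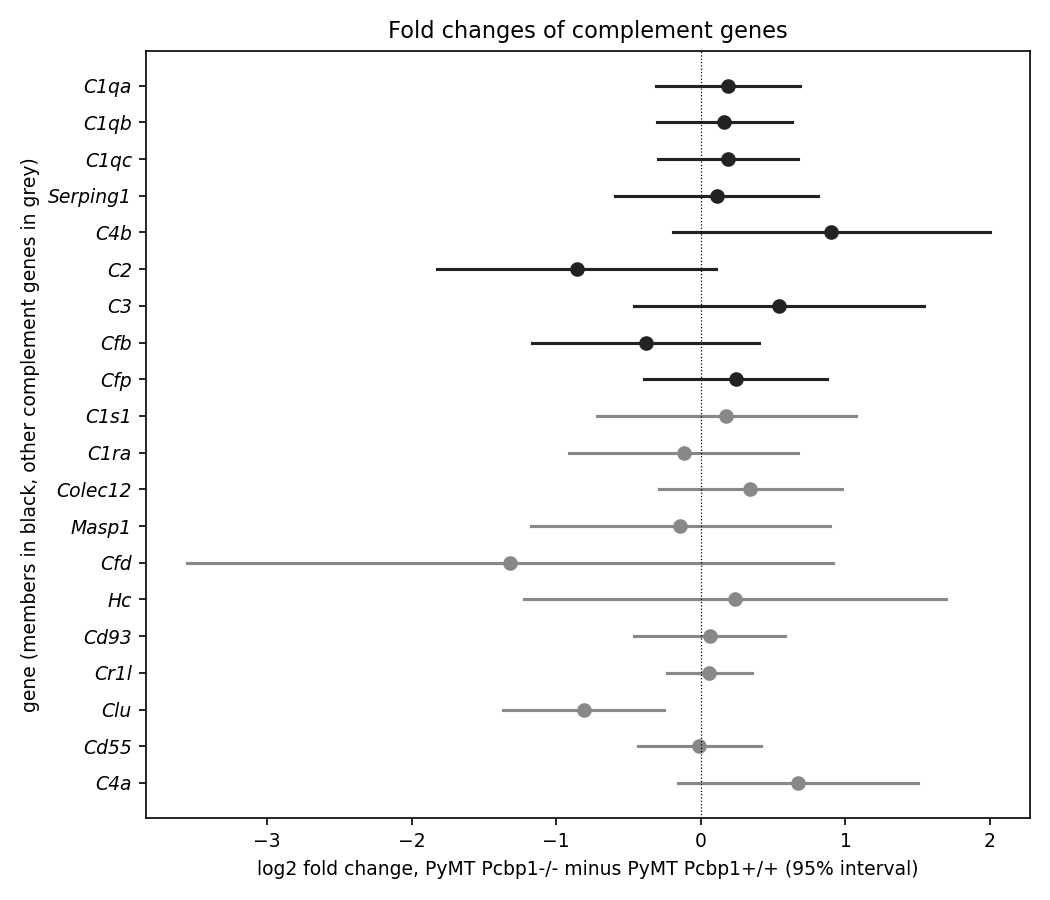
Log2 fold change of each complement gene (PyMT *Pcbp1*–/– minus PyMT *Pcbp1*+/+, horizontal axis) with its 95% interval from edgeR, members in black and other named complement genes in grey. The intervals of the 9 members cross 0, with *C4b* at 0.90 and *C2* at -0.86 the farthest from it, and that of *Clu* (-0.81) does not.

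*C4b*, *Cfb* and *C2* lie in one stretch of chromosome 17, and the genes from *C4b* to *Ehmt2* were examined, with bounds chosen after the values were seen. Of 11 genes between 34728380 and 34914052, 10 were tested, 1 fell and 0 rose at an adjusted p under 0.05 (edgeR). The gene that fell was *Ehmt2* (34898469 to 34914052, plus strand), a histone H3 methyltransferase that starts just past *C2*. It had 35.6 ± 3.16 CPM (SD, n = 6) with the PyMT *Pcbp1*–/– genotype and 59.1 ± 7.38 CPM (SD, n = 5) with PyMT *Pcbp1*+/+, with an estimate of -0.74 on the log2 scale (SE 0.11, edgeR adjusted p = 0.00480). All 6 PyMT *Pcbp1*–/– tumors lay below all 5 PyMT *Pcbp1*+/+ tumors for *Ehmt2*, and the call held in all 21 alternatives. The complement genes of the stretch showed no such separation, with log2 fold changes of 0.90 for *C4b*, -0.38 for *Cfb* and -0.86 for *C2*.

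**Figure D4:**
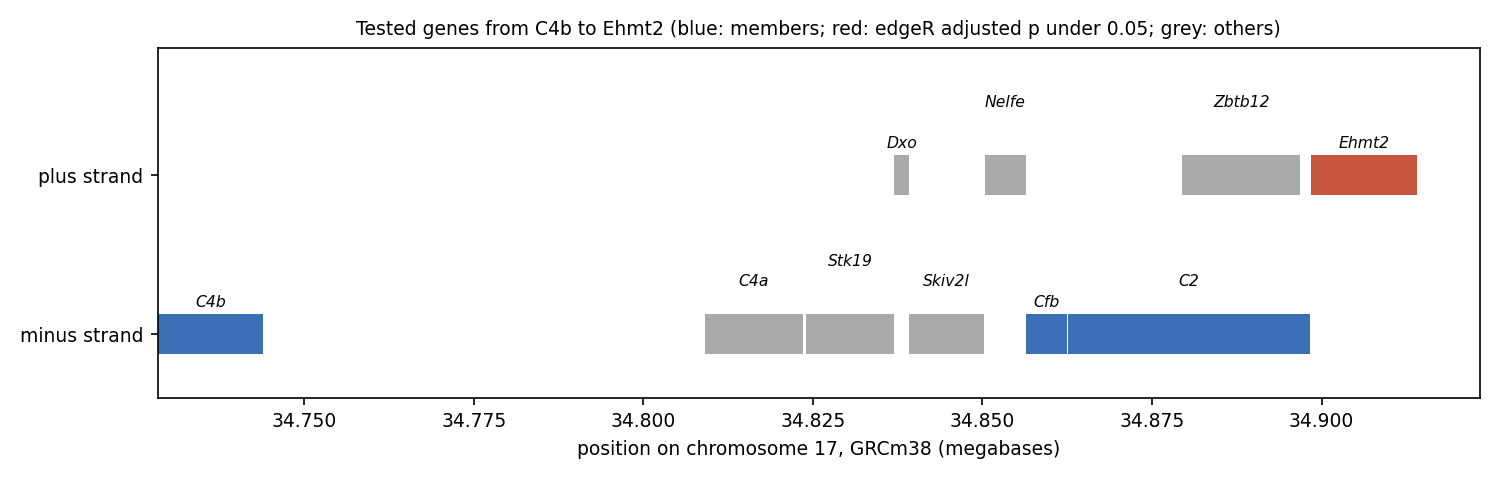
Map of the 10 tested genes from *C4b* to *Ehmt2* on chromosome 17 of GRCm38 (horizontal axis in megabases, strands as separate lines), with complement members in blue, genes past an adjusted p of 0.05 from edgeR in red and others in grey. *Ehmt2* is the 1 gene in red and adjoins *C2*, which overlaps *Zbtb12* on the opposite strand.

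The rest of the complement system gave no called gene with edgeR. Of 44 other complement genes listed by role, 34 were matched in the table and 20 were tested. At an adjusted p under 0.05 (edgeR), 0 were lower and 0 were higher, and at an unadjusted p under 0.05, 1 was lower and 0 were higher. DESeq2 called 1 lower gene, *Clu*. Their log2 fold changes were negative for 9 and positive for 11, with a median of 0.06 and a range from -1.32 to 0.67. The median was -0.09 without PyMT *Pcbp1*–/– replicate 6 and 0.14 without PyMT *Pcbp1*+/+ replicate 3. The classical list (*C1s1*, *C1ra* and *C4a* tested, the last not a protease) had a median of 0.18, the lectin pathway 0.10 over 2, the receptors 0.09 over 8 and the regulators -0.06 over 5.

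*Clu* encodes clusterin, which blocks assembly of the terminal complement complex. It had 72.3 ± 23.9 CPM (SD, n = 6) with the PyMT *Pcbp1*–/– genotype and 128 ± 46.9 CPM (SD, n = 5) with PyMT *Pcbp1*+/+, with an estimate of -0.81 on the log2 scale (SE 0.26, edgeR adjusted p = 0.119). All 6 PyMT *Pcbp1*–/– tumors lay below the PyMT *Pcbp1*+/+ median. The adjusted p was 0.0428 with DESeq2 and ran from 0.0428 to 0.332 over 21 alternatives, the highest with limma-voom, where the log2 fold change was -0.37. *Cd55*, a surface protein that dissociates the enzymes that cleave C3, had an estimate of -0.01 on the log2 scale (SE 0.20, edgeR adjusted p = 0.984).

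The partner proteases of C1q did not differ detectably either. *C1s1* had 13.1 ± 8.20 CPM (SD, n = 6) with the PyMT *Pcbp1*–/– genotype and 11.5 ± 6.04 CPM (SD, n = 5) with PyMT *Pcbp1*+/+ (log2 fold change 0.18, edgeR adjusted p = 0.856). *C1ra* had 5.98 ± 2.66 and 6.48 ± 3.08 CPM (log2 fold change -0.12, edgeR adjusted p = 0.891). Of the lectin pathway, *Colec12*, a scavenger receptor with a collectin domain, had a log2 fold change of 0.34 (edgeR adjusted p = 0.562) and *Masp1*, a serine protease, one of -0.14 (edgeR adjusted p = 0.901). That of *Colec12* was 0.08 without PyMT *Pcbp1*–/– replicate 6 and 0.57 without PyMT *Pcbp1*+/+ replicate 4. The receptor genes *Cd93* and *Cr1l*, the latter a surface regulator of C3, had values of 0.06 (edgeR adjusted p = 0.918) and 0.06 (edgeR adjusted p = 0.850). *Hc*, which encodes C5, had 0.24 (edgeR adjusted p = 0.882), whereas *C9* of the terminal pathway and *Cfi*, a protease that inactivates C3 and C4 fragments, were too low to be tested, with at most 2.28 and 0.379 CPM in any tumor.

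*Cfd*, the adipocyte-derived protease that cleaves factor B, varied more than any member. It had 0.0710 CPM in PyMT *Pcbp1*–/– replicate 5 and 33.8 CPM in PyMT *Pcbp1*+/+ replicate 3, and its log2 fold change stood at -1.32 (SE 1.03, edgeR adjusted p = 0.523). The summed adipocyte markers were also highest in PyMT *Pcbp1*+/+ replicate 3 and lowest in PyMT *Pcbp1*–/– replicate 5, although single markers such as *Lep* were not. Of 6 listed, 5 were tested and 0 were called (edgeR), and the sum of all 6, led by *Lpl*, was 39.6, 19.1, 9.79, 10.2, 6.53 and 62.0 CPM in the PyMT *Pcbp1*–/– tumors, in order of replicate. It was 25.3, 10.4, 93.1, 27.5 and 16.1 CPM in the PyMT *Pcbp1*+/+ tumors, in order of replicate, and *Adipoq*, *Cidec* and *Retn* were each at 0 in at least 1 tumor. Without PyMT *Pcbp1*+/+ replicate 3, the log2 fold change of *Cfd* was 0.48, and with limma-voom it was -2.59. The relation of *Cfd* to adipocyte markers was not tested.

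Other marker lists gave 0 called genes with edgeR. Endothelial markers (6 tested, *Cdh5* the most abundant) and basal epithelial markers (6 tested, led by *Acta2*) had median log2 fold changes of -0.22 and -0.25. Dendritic cell markers (4 tested, led by *Zbtb46*) had -0.18 and T cell markers (3 tested, led by *Cd8a*) -0.12. Luminal epithelial markers had -0.05. The 1 tested neutrophil marker, *Csf3r*, had -0.34, and 0 B cell markers were tested, of which *Pax5* was the more abundant. *S100a9*, *Cxcr2* and *Mmp8* of neutrophils, *Cd209a* of dendritic cells and *Cd3d* and *Cd8b1* of T cells were at 0 in some tumors. Of 5 listed hepatocyte markers, only *Fgb* was matched, and *Alb*, *Apoa1*, *Ttr* and *Serpina1a* were not. *Fgb* alone therefore does not show hepatocyte RNA. It had 2.47 ± 2.48 CPM (SD, n = 6) with the PyMT *Pcbp1*–/– genotype and 4.80 ± 3.72 CPM (SD, n = 5) with PyMT *Pcbp1*+/+.

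The genes closest to the C1q chains over the 11 tumors, after removal of the group means, were partly shared between the chains. They too were picked as the highest r of 10866 genes, and these r were not tested. *C1qa* was closest to *Plek* (r = 0.992), *Ctss* (r = 0.990) and *Mpeg1* (r = 0.978). *C1qb* was closest to the same genes in another order, *Mpeg1* (r = 0.999), *Ctss* (r = 0.977) and *Plek* (r = 0.973). *C1qc* was closest to *Fcgr3* (r = 0.971), *Plek* (r = 0.965) and *Neurl3* (r = 0.965).

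Because the C1q chains moved together, 250 bases were searched upstream of the start that RefSeq gives, where its promoters of GRCm38.p6 matched, which was the case for 4 members (*C1qb*, *C1qc*, *C3* and *Cfp*). The motifs, looked for on both strands and chosen with earlier results and, for the last, the sequences known, were GAAANNGAA (a core of interferon-stimulated response elements), TTCNNNGAA (a gamma-activated site) and AGGAAGT (a core bound by ETS factors such as the myeloid factor PU.1). Among 32851 promoters of the same length, 7.13%, 7.02% and 7.69% held them. Neither of the first 2 was found in the 4 windows, which says only that these letters are not there. AGGAAGT was found, on the opposite strand, in *C1qb* from -53 to -47 and in *C1qc* from -195 to -189, counted from the RefSeq start, and in neither *C3* nor *Cfp*. The RefSeq start of *C1qc* lies inside the gene as placed by the deposited coordinates, so more than 100 bases of its window belong to that gene span. A match is a description and not evidence of binding. Both windows, shown because these genes moved together, are on the minus strand, and the capitals mark the match.
*C1qb* at chr4:136886201-136886450: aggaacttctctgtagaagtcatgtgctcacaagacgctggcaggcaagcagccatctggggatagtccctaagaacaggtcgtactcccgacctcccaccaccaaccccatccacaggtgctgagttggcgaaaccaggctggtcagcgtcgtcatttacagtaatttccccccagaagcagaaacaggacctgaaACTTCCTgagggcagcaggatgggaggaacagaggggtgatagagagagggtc
*C1qc* at chr4:136892915-136893164: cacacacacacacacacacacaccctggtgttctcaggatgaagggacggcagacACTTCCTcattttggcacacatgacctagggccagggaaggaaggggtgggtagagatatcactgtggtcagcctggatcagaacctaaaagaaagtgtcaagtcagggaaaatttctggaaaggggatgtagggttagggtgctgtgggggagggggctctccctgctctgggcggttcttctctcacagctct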

How the data were processed

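RNA of 11 mammary tumors (6 PyMT *Pcbp1*–/–, 5 PyMT *Pcbp1*+/+) was measured as gene counts. Per the submitters' processing notes and the study's methods, the authors ran FastQC, mapped read pairs with Bowtie2 (genome GRCm38) and analyzed them in Partek Flow, without versions. The annotation release, the counting method and its use of strand are not given in the sources used here. The deposited estimated counts are not normalized, and the deposited CPM are the same counts per 1e6 counts of a tumor. The stop column points 1 base beyond each gene, so ends given here are 1 lower.

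Counts were rounded to whole numbers for edgeR 4.0.16 in R 4.3.3 (TMM factors, default filter on low counts, quasi-likelihood test with genotype as the only term, Benjamini-Hochberg adjustment over 19232 genes). A standard error is the absolute log2 fold change over the root of F. All 3 tools were tested on simulated data in which 200 genes had known changes, and DESeq2 made the most calls on unchanged genes there. Permutations used scipy 1.17.1 and numpy 2.4.6, tables pandas 2.3.3 under python 3.11.15, and figures matplotlib 3.10.9. Transcript lengths and windows came from GENCODE M39, an annotation of GRCm39, with 1 canonical transcript per gene and no coordinates taken from it. Promoters came from RefSeq for GRCm38.p6.

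Named were, by a rule, the 9 members, *Pcbp1*, the 2 other complement genes of highest mean CPM in each role list and any past an adjusted p of 0.05 (at most 10), the most abundant gene of each marker list and those at 0, the 3 genes most correlated with each member, and genes that overlap or nearly copy one. *Ehmt2*, *Trem2*, *Cd14* and the bounds of the chromosome 17 stretch were chosen after their values were seen. The members and lists were chosen with earlier results of these data known.

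As alternatives served DESeq2 1.42.0, upper-quartile factors, library size only, a filter of 1 CPM in 5 tumors or none, limma 3.58.1 (voom with sample quality weights, and log2(CPM + 1) or log2(CPM + 0.1)), protein-coding genes only, the replicate number as a block (10 tumors, without PyMT *Pcbp1*–/– replicate 6), and each tumor left out. For co-variation they were log2(CPM + 0.1), TMM-scaled CPM and each tumor left out, with macrophage markers without *Cd14* and an exact permutation within groups added after seeing the data. Labels give a single batch, so no comparison within batches was made.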

Additional observations from a re-analysis of the deposited data

Results flagged for a closer look

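In 80 groups of values, each of one genotype, a single tumor standing apart was searched for, by a gap to its nearest neighbour of that genotype that was large against the range. Tumors of the other genotype did not enter, and some of them had values as extreme or in between. Such a gap was found in 14. About 4 would be given by chance, at 1 in 20, if values were normally distributed and the groups independent. The CPM were not checked for this and the groups share tumors, so the 14 do not show an excess over chance. What sets these tumors apart was not tested.

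Among the members, *C3* was high in PyMT *Pcbp1*–/– replicate 5 (18.8 against 8.72 CPM in the next of its genotype) and *Cfp* was high in PyMT *Pcbp1*–/– replicate 6 (5.02 against 2.92 CPM in the next of its genotype). PyMT *Pcbp1*–/– replicate 6 was also high for *C1s1* (29.5 against 11.9 CPM in the next of its genotype), *Colec12* (29.0 against 15.7 CPM in the next of its genotype) and *Hc* (4.41 against 1.83 CPM in the next of its genotype), and for the summed B cell markers (2.09 against 1.03 CPM in the next of its genotype). It was high as well for *Fgb*, the only matched gene of the hepatocyte list (7.34 against 2.85 CPM in the next of its genotype). The same tumor was low for *Ehmt2* (29.4 against 35.4 CPM in the next of its genotype). In PyMT *Pcbp1*–/– replicate 2, the summed basal epithelial markers were low (55.7 against 205 CPM in the next of its genotype).

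Among PyMT *Pcbp1*+/+ tumors, replicate 3 was high for *Cfd* (33.8 against 4.92 CPM in the next of its genotype) and for the summed adipocyte markers (93.1 against 27.5 CPM in the next of its genotype). *Masp1* was high in replicate 1 (11.7 against 4.19 CPM in the next of its genotype), *C9* was high in replicate 2 (2.28 against 0.548 CPM in the next of its genotype), and *Cd93* was low in replicate 5 (32.2 against 54.1 CPM in the next of its genotype).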

How the results depend on the processing

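The number of members past an adjusted p of 0.05 was 0 lower and 0 higher in edgeR and in all 21 alternatives. At an unadjusted p under 0.05, limma-voom gave 2 lower and 1 higher, and put 15.3% of all genes lower and 15.0% higher. With the replicate block or without PyMT *Pcbp1*+/+ replicate 5, 1 was lower (*C2*) and 1 higher (*C4b*). Limma on log2(CPM + 1) or log2(CPM + 0.1) put *C4b* higher, and leaving out PyMT *Pcbp1*–/– replicate 6 put *C2* lower. These other fits put 9.22% to 10.8% of all genes lower and 7.63% to 9.33% higher at that p. *C2*, *C3*, *C4b* and *Cfb* kept their sign in all 21. Limma-voom with sample quality weights turned the sign of *C1qa* (-0.0732), *C1qb* (-0.0934), *C1qc* (-0.0713), *Serping1* (-0.19), *C1s1* (-0.34), *Masp1* (0.0124), *Cd93* (-0.16) and *Cr1l* (-0.14). The labels do not say whether the replicate numbers pair the tumors. Same-numbered tumors had correlations of 0.165, 0.064, -0.11, -0.176 and 0.324, and only number 5 correlated best with its own. These values cannot show whether a pairing existed. With the replicate block, *Serping1* was at -0.0312, *Cfp* at -0.0117, *C1s1* at -0.11 and *Hc* at -0.0639, and over all genes 118 were lower and 42 higher. The replicate block fit also lacked PyMT *Pcbp1*–/– replicate 6, whose removal alone turned these 4 signs (-0.13, -0.0287, -0.26 and -0.34) and gave 212 lower and 69 higher, so block and tumor cannot be told apart there.

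With each tumor left out, log2 fold changes that turned sign ran from -0.13 to 0.41 (*Serping1*), -0.0287 to 0.35 (*Cfp*), -0.26 to 0.52 (*C1s1*), -0.36 to 0.14 (*C1ra*), -0.38 to 0.45 (*Masp1*), -1.91 to 0.48 (*Cfd*), -0.34 to 0.75 (*Hc*), -0.16 to 0.17 (*Cd93*), -0.0102 to 0.15 (*Cr1l*) and -0.10 to 0.10 (*Cd55*). Other complement genes lower were 0 with edgeR and 1 with DESeq2 (*Clu*). Over all genes, edgeR gave 319 lower and 117 higher, DESeq2 723 and 482, and limma-voom 1190 and 968. Leaving out a tumor gave 144 (without PyMT *Pcbp1*–/– replicate 3) to 389 lower and 41 (without PyMT *Pcbp1*+/+ replicate 3) to 187 higher. Positive relations of members were 5, and ran from 3 (without PyMT *Pcbp1*–/– replicates 4 or 5 or PyMT *Pcbp1*+/+ replicates 3 or 5, each alone) to 10 (without PyMT *Pcbp1*–/– replicate 1). Negative relations were 0, with 1 without PyMT *Pcbp1*+/+ replicate 1. Among alternatives chosen after seeing the data, exact permutation within groups gave 3 positive relations and the macrophage sum without *Cd14* 8. The causes were not tested, and each fit that left one out also had fewer tumors. Depth limits *C2*, with 4 to 32 counts per tumor.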
